A study of Mus musculus with 9 samples.

Results

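The comparison set the lung adenocarcinoma line MDA-F471 against a non-tumorigenic epithelial line of the same genotype, both lacking Gprc5a, over every non-control probe set of a mouse expression array. The arrays were chosen by their titles, 3 of the adenocarcinoma line and 3 of the knockout tracheal line, 6 of the 9 in the series. The titles call the cells of the knockout line normal lung epithelial cells and do not name the trachea. The knockout line (NULL-NLE) was cultured from the trachea of 3-week-old Gprc5a knockout mice. MDA-F471 was established from a tumour of this kind in a female Gprc5a knockout mouse killed 16 months after an intraperitoneal injection of NNK, a tobacco-specific nitrosamine carcinogen. The other 3 arrays hold a tracheal line from Gprc5a wild-type mice of the same age (WT-NLE), which entered the estimate of spread and is quoted for reference only. The labels give the strain of the mice as C57/BL6 x sv129. Each condition is 1 cell line, and the labels do not say whether its 3 arrays came from separate cultures, and p-values here reflect the spread between arrays, which may be technical. The 2 lines differ in organ, age of the mouse, carcinogen exposure and tumour origin at once, and these cannot be told apart.

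Gprc5a is a retinoic acid-inducible orphan G protein-coupled receptor of lung epithelium, and mice without it develop lung tumours. The trachea is lined by a pseudostratified epithelium that rests on basal cells, the resident stem cells, which are marked by the transcription factor p63 (Trp63) and by keratins such as Krt5 and Krt14, and which can take on squamous features in culture. Lung adenocarcinomas arise mostly from alveolar type II or secretory cells and usually keep the simple keratins Krt7, Krt8, Krt18 and Krt19 of glandular epithelia. Carcinoma lines also commonly lose the checks on entry into the cell cycle, of which the Cdkn2a and Cdkn2b inhibitors are the best known.

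Values are deposited expression levels on a log2 scale, so a difference of 1 is 2-fold, and every difference below is the adenocarcinoma line minus the knockout line, with its standard error (SE). Gprc5a itself read 7.20, 7.09 and 7.18 on the knockout arrays and 6.96, 7.02 and 7.09 on the adenocarcinoma arrays, against 8.63, 8.74 and 8.32 in the wild-type line. All 6 arrays of the Gprc5a-null lines lay below the wild-type arrays, and the null lines differed by -0.13 ± 0.11, which was not called. The sources used here do not place the probe set relative to the deletion. Of its relatives, Gprc5b, Gprc5c and Gprc5d differed by -0.13, 0.01 and -0.12 between the lines, and none was called. Arrays of 1 line correlated at 0.9936 to 0.9957 over all probe sets and arrays of different lines at 0.9265 to 0.9313 (Pearson, across probe sets). Array medians ran from 6.285 to 6.336. Scan dates and batches were not given in those sources. The gap between the 3′ and 5′ beta-actin control probe sets, a sign of RNA quality, was 0.569 ± 0.187 (SD, n = 3) in the adenocarcinoma line and 0.926 ± 0.027 (SD, n = 3) in the knockout line, with an exact two-sided permutation p of 0.1, the smallest that 3 against 3 arrays allow. The same p came from the spike-in controls BioB and CreX, lower by differences of -0.915 and -0.51 in the adenocarcinoma line, and the Gapdh gap gave an exact permutation p of 0.7. Their part in the results below was not tested.

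A gene was called changed when limma's p-value, adjusted by Benjamini-Hochberg over 45037 probe sets, was under 0.05 and the difference at least 2-fold. Of 18193 genes, 1417 were higher in the adenocarcinoma line and 1161 lower, 14.2% of the genes in all, 7.79% upward and 6.38% downward. Among all probe sets, named or not, 2787 rose and 2332 fell (11.4%). Rises were the more numerous at the 2-fold threshold and falls among the largest changes: 414 genes rose and 407 fell at least 4-fold, 58 rose and 82 fell at least 16-fold, and 10 rose and 24 fell at least 64-fold. The arrays of the lines did not overlap for any called gene, but they did not overlap for 52.3% of all genes either. No detection calls were used, so a floor of 5.15 was taken from the array's Bacillus control probe sets; for 78 of the genes that rose and 117 of those that fell, all 3 arrays of the dimmer line lay under it, and their fold is given as a lower bound. For another 53 and 29, 1 or 2 arrays of the dimmer line lay under it, and their fold, with those arrays raised to the floor, is a lower bound too. The brightest Bacillus control value was 5.96, so levels up to it may still be background and folds against them understated.

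**Figure D1:**
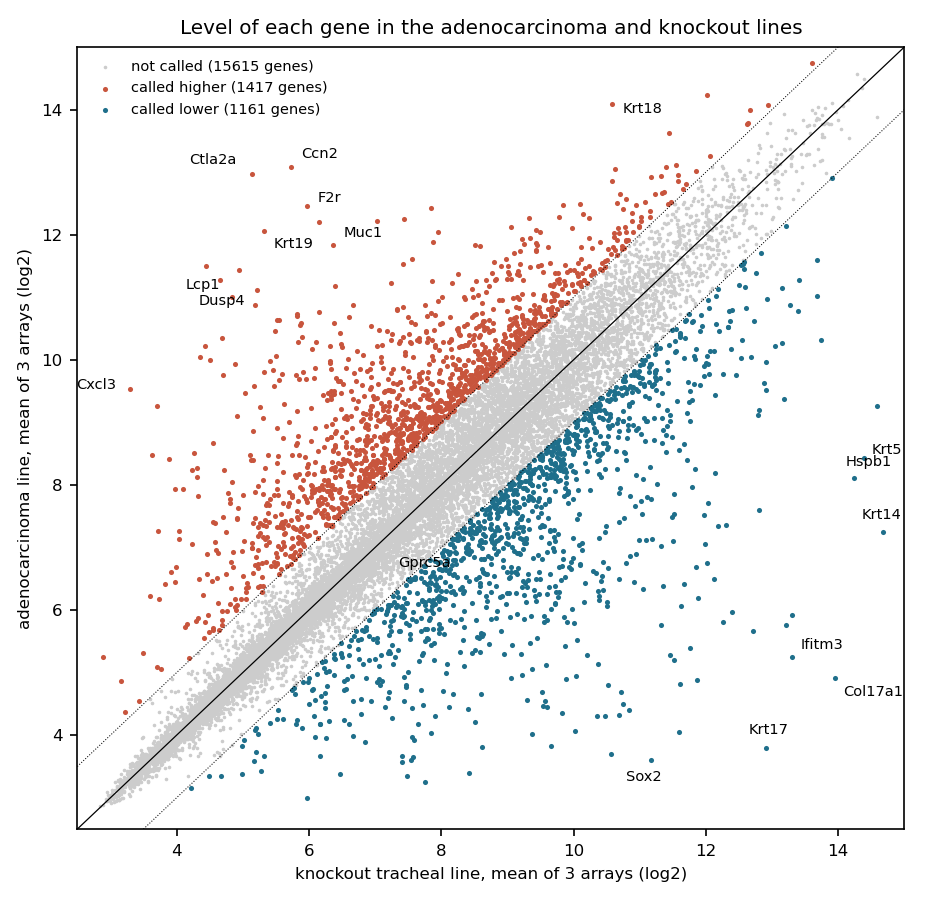
Mean level of each of 18193 genes on 3 arrays of the knockout tracheal line (x axis, log2) and of the adenocarcinoma line (y axis, log2). Red points are the 1417 genes called higher and blue points the 1161 called lower in the adenocarcinoma line; the solid line marks equal levels and the dotted lines 2-fold.

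Gene lists for the 2 tissues and for common cancer pathways were used to read these calls. Every list count below stands beside the 7.79% of all genes that rose and the 6.38% that fell. A list with shares near these does not stand out by its count. Of 14 general epithelial markers 3 rose, Cldn7, Krt18 and Krt8, and 2 fell, the regulators Ovol1 and Esrp2, with differences of -1.32 (-0.69, under 2-fold, as the mean of its probe sets) and -1.26. Epcam, an epithelial adhesion molecule, read 11.61, 11.92 and 11.66 in the knockout line and 12.12, 12.08 and 11.90 in the adenocarcinoma line, with a difference of 0.30 ± 0.13 that was not called. Cdh1, E-cadherin, differed by -0.71 ± 0.09, also under 2-fold. Of 50 fibroblast, endothelial, neuroendocrine, cartilage and mesothelial markers 0 were called by limma in either direction, although 7 had an unadjusted p under 0.05. These 5 are the cell type lists without a called member, beside 14.2% of all genes called. In the same order 2, 4, 4, 3 and 3 of their markers were under the floor on all 6 arrays, where a call is hardly possible. Of 10 smooth muscle markers the kinase Mylk was at least 13.2-fold higher and the actin Acta2 fell by 1.61 (a difference of 0.03 once _x_at and _s_at probe sets, which can read several transcripts, are left out), and of 13 ciliated cell markers only the tubulin Tubb4b rose, by 1.56 (0.34 as the mean of its probe sets). Of 12 leukocyte markers 2 rose, Lcp1 and Cd14, while the pan-leukocyte phosphatase Ptprc stayed at 4.51, 4.41 and 4.54 in the adenocarcinoma line and 4.38, 4.54 and 4.31 in the knockout line, all under the floor. The log2 of the summed leukocyte marker signal was 12.13 to 12.28 in the adenocarcinoma line and 10.31 to 10.55 in the knockout line. The same sum over fibroblast markers was 9.95 to 10.002 in the adenocarcinoma line and 9.94 to 10.02 in the knockout line, and the ranges overlapped. Ranges did not overlap for ciliated markers, at 13.19 to 13.27 in the adenocarcinoma line and 11.90 to 11.94 in the knockout line, for mesothelial markers, at 11.78 to 11.92 and 12.25 to 12.51, or for smooth muscle markers, at 10.59 to 10.70 and 10.75 to 10.77. Most of the ciliated sum was Tubb4b, with means of 13.12 and 11.55 in the same order, and the median difference of that list was -0.20. Sums for general epithelial, squamous keratin, lineage factor, alveolar type I and II, airway secretory and gut markers did not overlap either. Those for neuroendocrine, endothelial and cartilage markers did. The part of these markers in the results was not tested. In bulk RNA of a culture, fewer cells of a kind and less RNA per cell cannot be told apart.

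The lines differed in their keratins, with most of those of basal and squamous cells far lower in the adenocarcinoma line and most of those of simple epithelia higher. Of 14 squamous and basal keratins measured, 9 fell and 1 rose, with a median difference of -5.64 against a median of 0.00 over all genes. Of 6 simple keratins, 5 rose and 0 fell, with a median of 2.29. Krt5, the type II keratin of basal cells, read 14.45, 14.28 and 14.41 in the knockout line and 8.47, 8.58 and 8.24 in the adenocarcinoma line. Its partner Krt14 read 14.61, 14.68 and 14.73 and 7.27, 7.39 and 7.10 in the same order. Krt17, a keratin of wounded and hyperproliferative epithelium, read 12.97, 12.88 and 12.86 in the knockout line and 3.80, 3.69 and 3.89 in the adenocarcinoma line. All 3 were bright on every knockout array, and on the adenocarcinoma arrays Krt17 lay under the floor while Krt5 and Krt14 were still above it. The differences were -5.96 ± 0.10 (SE) for Krt5, -7.42 ± 0.10 for Krt14 and at least 216-fold for Krt17 (limma adjusted p 1.86e-12, 4.62e-13 and 2.02e-13). Krt15, another basal keratin, fell by 6.45, and Krt13, a keratin of internal squamous epithelia, was at least 105-fold lower. Krt6a, Krt6b and Krt16, which are induced together in wound edges, fell too, but near-identical keratin copies can share probes, so the split among them is uncertain. The Krt14 probe set ends in _x_at and can read several transcripts, so the size of its fall is uncertain too. Krt23 was the 1 member of the list of squamous and basal keratins that rose, by 2.25 ± 0.14, and its place among them was not tested.

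Krt19 showed the widest gap of the simple keratins. It read 5.41, 5.52 and 5.02 in the knockout line and 11.97, 12.25 and 11.94 in the adenocarcinoma line, at least 104-fold higher (limma adjusted p 6.62e-12). The wild-type tracheal line read 10.21, 10.19 and 10.26, so the knockout arrays stood alone at the low end. Krt18 rose from 10.37, 10.90 and 10.48 to 14.13, 14.12 and 14.0002, and its partner Krt8 from 12.67, 12.75 and 12.57 to 13.92, 13.96 and 14.10. These are differences of 3.50 ± 0.14 and 1.33 ± 0.10. Krt20, a keratin best known from gut and urothelium, was at least 9.22-fold higher, from knockout values of 5.01 to 5.31. Krt7 rose least of the 5, by 1.13 ± 0.11, and was high in both lines.

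The late products of squamous differentiation fell in part. Of 18 cornified envelope genes measured, 9 fell and 1 rose, and of 17 proteases and protease inhibitors of stratified epithelium 8 fell and 0 rose. Dmkn, a secreted keratinocyte protein, read 13.27, 13.29 and 13.08 in the knockout line and 5.68, 5.94 and 5.67 in the adenocarcinoma line, 175-fold lower. Spink5, the inhibitor that restrains skin kallikreins, read 11.49, 11.58 and 11.71 and 4.26, 3.95 and 3.97, at least 87.2-fold lower. Sbsn, a neighbour of Dmkn on the chromosome, fell by 5.27 with an SE of 0.09, and the serpin Serpinb1a was at least 40.3-fold lower. The adenocarcinoma values of Spink5 and Serpinb1a lay under the floor on every array, and those of Dmkn and Sbsn above it. Serpinb5 (maspin) and Slpi, inhibitors of serine proteases, fell (-2.94 and -3.01). The kallikrein Klk7 differed by -0.02, and Klk5 and Klk6 were at or under the floor in both lines. Ivl, the envelope precursor involucrin, went the other way: it read 4.76, 4.88 and 5.16 in the knockout line and 7.70, 7.64 and 7.56 in the adenocarcinoma line, at least 5.58-fold higher. Filaggrin (Flg) was under the floor on all 6 arrays.

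Junction genes changed in both directions, desmosomes downward and tight junctions mostly upward. Of 11 desmosome genes 8 fell and 1 rose, with a median difference of -1.48, and of 15 tight junction genes 7 rose and 3 fell, with a median of 0.94. The desmosomal cadherin Dsc3 read 9.63, 9.61 and 9.75 in the knockout line and 3.65, 4.09 and 3.74 in the adenocarcinoma line, at least 22.9-fold lower. Dsp, the plaque protein desmoplakin that every desmosome needs, read 13.69, 13.71 and 13.62 and 11.03, 10.91 and 11.11. Dsc3 was under the floor in the adenocarcinoma line and Dsp, at 6.30-fold lower, was not. The plaque protein Pkp1 of stratified epithelium fell by 3.43 and its relative Pkp2, found in simple epithelium and heart, rose by 1.64 ± 0.09. Dsg2 fell by 1.37 and Perp, a desmosomal p53 target, fell by 2.08.

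Claudins, the strand proteins of tight junctions, changed in both directions. Cldn7 read 7.65, 8.02 and 7.86 in the knockout line and 12.41, 12.27 and 12.58 in the adenocarcinoma line, and Cldn3 read 7.88, 7.80 and 7.92 and 12.07, 12.12 and 11.49. Cldn2, which forms a cation-permeable pore, rose from 6.28, 6.43 and 6.28 to 9.66, 9.83 and 10.10. These were rises of 23.9-fold, 16.2-fold and 11.6-fold, and for each the lowest adenocarcinoma array lay above the highest knockout array. Cldn1, the claudin of stratified epithelium, fell from 8.83, 9.71 and 9.14 to 4.88, 4.98 and 5.05, at least 16.9-fold, and Cldn6 fell by 3.86 with an SE of 0.17. Cldn4 differed by 0.78 ± 0.32 (limma adjusted p 0.084), with 1 adenocarcinoma array among the knockout values, and passed 2-fold without that array, at 1.17.

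Anchorage to the basement membrane changed at particular proteins. Of 17 hemidesmosome and basement membrane genes 4 fell and 1 rose. Col17a1, the transmembrane collagen of hemidesmosomes, read 14.03, 13.999 and 13.83 in the knockout line and 4.82, 4.95 and 4.9995 in the adenocarcinoma line, at least 447-fold lower (limma adjusted p 2.02e-13). Dst, which encodes the plaque protein BPAG1 among other isoforms, fell by 5.62 at the probe set used and by 5.19 at another, while the other 2 probe sets differed by 0.21 and -0.52. Itga6, which with Itgb4 forms the hemidesmosomal integrin, differed by -0.68 ± 0.08 and Itgb4 by -0.27 ± 0.17, neither past 2-fold. The laminin chain Lamb1 rose by 1.49 ± 0.08.

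**Figure D2:**
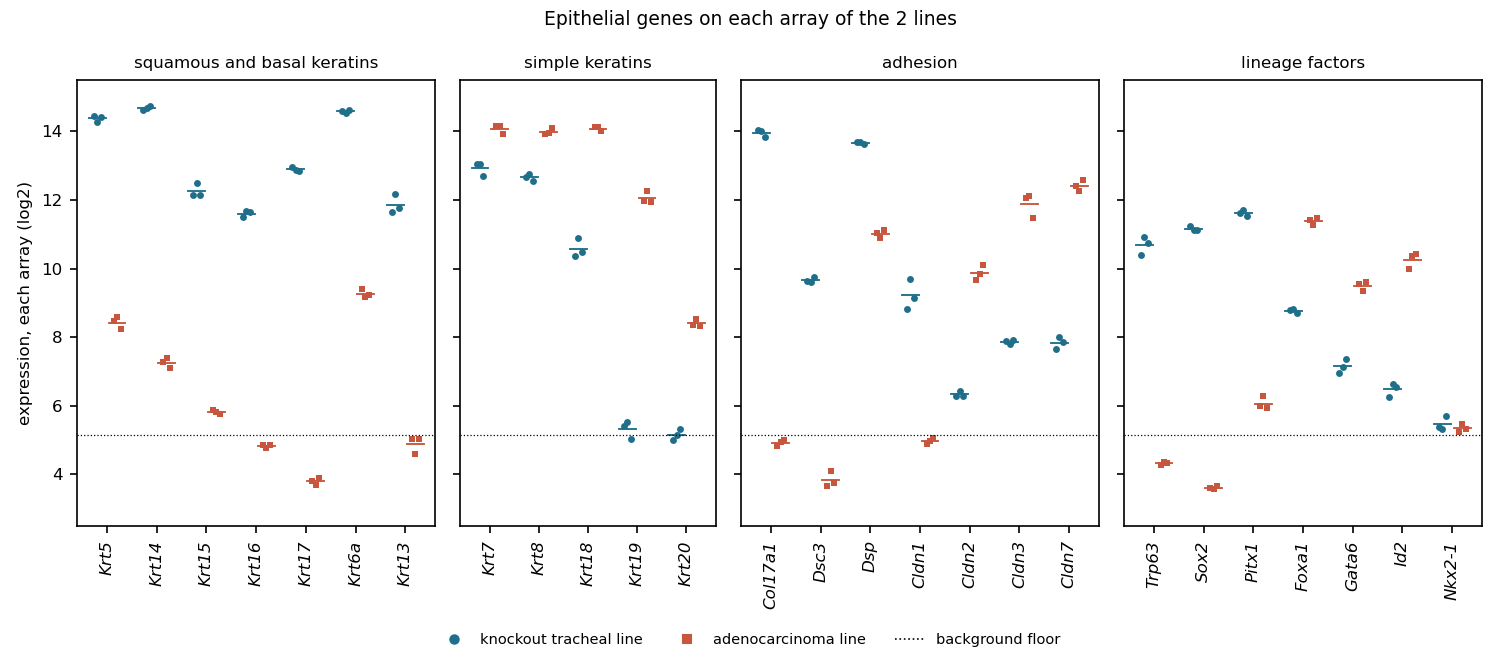
Expression (y axis, log2) of keratin, adhesion and lineage factor genes on each of the 3 knockout arrays (circles) and 3 adenocarcinoma arrays (squares), with short lines at the group means and a dotted line at the background floor of 5.15. Krt17, Col17a1, Trp63 and Sox2 sit under the floor on all 3 adenocarcinoma arrays, and Krt18, Krt19, Cldn3, Cldn7 and Foxa1 are higher there than on any knockout array.

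The factors that specify airway basal cells followed the keratins. Of 27 airway and lung lineage factors, 13 fell and 4 rose, with a median of -0.79 (-1.42 over the 23 left without the dimmest 40% of probe sets). Sox2, the factor of proximal airway identity, read 11.24, 11.12 and 11.13 in the knockout line and 3.59, 3.57 and 3.66 in the adenocarcinoma line, at least 64.7-fold lower. Trp63 read 10.40, 10.92 and 10.75 and 4.29, 4.35 and 4.33, at least 46.5-fold lower. Both lay under the floor on all adenocarcinoma arrays and were bright on all knockout arrays. Pitx1, a homeobox factor, fell from 11.62, 11.70 and 11.53 to 5.99, 6.28 and 5.93, and Cebpa, a factor of lung epithelial differentiation, from 11.22, 11.04 and 11.27 to 7.70, 7.93 and 7.71. Grhl3, a regulator of stratified epithelium, fell by 2.72. Foxa1, a pioneer factor of endoderm, rose from 8.79, 8.81 and 8.71 to 11.42, 11.27 and 11.47, by 2.62 ± 0.09. Gata6, a factor of distal lung endoderm, rose from 6.97, 7.12 and 7.35 to 9.56, 9.35 and 9.60, and Id2, a marker of distal lung progenitors, from 6.26, 6.63 and 6.54 to 9.97, 10.36 and 10.43. For Foxa1 and Id2 the wild-type tracheal line read 10.63 to 10.82 and 9.59 to 9.87, above the knockout line as well.

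Nkx2-1, the factor that marks lung and most lung adenocarcinomas, was not raised. It read 5.39, 5.32 and 5.71 in the knockout line and 5.25, 5.48 and 5.32 in the adenocarcinoma line, and the arrays overlapped. Sftpc, the surfactant protein of alveolar type II cells, read 5.73, 5.86 and 5.63 and 5.50, 5.93 and 5.73. All of these values lay between the floor and the brightest Bacillus control value, so neither gene stood clear of background in either line. Of 14 alveolar type II markers 3 rose and 1 fell. Those that rose were Muc1, a membrane mucin of glandular epithelia, Lpcat1, which makes surfactant lipid, and the collectin Sftpd, by 5.47, 2.61 and 1.38. Sftpb and Sftpa1 differed by -0.14 and 0.20. Of 12 alveolar type I markers 4 rose (33.3%) and 1 fell (8.33%), beside 7.79% and 6.38% of all genes. The largest of these rises was 3.05, for the semaphorin Sema3e. The defining genes Ager and Pdpn differed by 0.29 and -0.10, neither called. The type I marker Hopx, which squamous cells also express, fell by 2.51. The airway secretory gene Cbr2 fell and Scgb1a1, the secretoglobin of club cells, was under the floor on every array of both lines. The adenocarcinoma line thus carried epithelial and simple keratin markers such as Epcam and Krt8, which were bright in the knockout line too. It did not carry Nkx2-1, Sftpc or Scgb1a1 above background. Of 12 gut epithelial markers 2 rose, Vil1 (villin) at least 2.63-fold and the intestinal cadherin Cdh17 by 1.09 ± 0.11, while Cdx2, the intestinal master factor, differed by -0.09.

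Mesenchymal markers did not rise as a group. Of 17 genes listed for epithelial-mesenchymal transition 5 fell (3 without the dimmest 40% of probe sets) and 1 rose. Snai2 (Slug), a transition factor that basal cells also express, read 12.08, 11.96 and 11.91 in the knockout line and 7.07, 7.04 and 7.08 in the adenocarcinoma line, 30.3-fold lower. Cdh3, the P-cadherin of basal layers, fell by 3.03 and Twist1 was at least 2.61-fold lower. The extracellular matrix protein Fn1 rose by 1.43 ± 0.13. Vimentin (Vim), the mesenchymal intermediate filament, differed by 0.96 ± 0.16, just under 2-fold, and passed it without the adenocarcinoma line's replicate 3, at 1.02.

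Genes of DNA replication and mitosis were higher in the adenocarcinoma line almost throughout. Of 19 origin licensing genes 14 rose, of 15 DNA synthesis genes 13, of 31 mitosis genes 30 and of 15 recombination and Fanconi genes 13, and none of the 4 lists had a member that fell. These counts stand beside the 7.79% of all genes that rose. The medians of the lists were 2.04, 1.39, 2.18 and 1.54. Lists of this kind move with the share of dividing cells in a culture, and the sources used here give neither density nor growth state at harvest.

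Cdc6, which loads the replicative helicase at origins, changed most of the licensing genes. It read 5.21, 5.22 and 5.51 in the knockout line and 9.86, 9.73 and 9.82 in the adenocarcinoma line, 22.4-fold higher (limma adjusted p 2.11e-11). The helicase subunit Mcm6 rose from 8.62, 8.51 and 8.28 to 11.07, 11.09 and 11.24. The helicase subunits rose within a narrow band, 2.55 for Mcm2, 2.17 for Mcm3, 2.34 for Mcm4, 2.24 for Mcm5 and 2.04 for Mcm7. Dbf4, the activator of the Cdc7 kinase, rose by 2.53 ± 0.10, while Cdc7 itself differed by 0.34 (1.16 as the mean of its probe sets). In nucleotide supply the ribonucleotide reductase subunit Rrm2 rose from 9.30, 8.80 and 9.08 to 11.99, 12.23 and 12.13, by 3.06 ± 0.12. Dut, which clears dUTP, and the thymidine kinase Tk1 rose by 2.89 and 2.61, and the sliding clamp Pcna by 1.70. In recombination repair, the nuclease Exo1 rose by 2.67 ± 0.11, Brca1 by 2.42 ± 0.14 and the checkpoint kinase Chek1 by 1.85 ± 0.12, and Brca2 differed by 0.71, under 2-fold.

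The called mitotic genes rose by 1.35 to 3.13, the lowest being the chromosomal passenger Incenp (0.88 as the mean of its probe sets) and the highest the checkpoint kinase Bub1. Bub1 read 7.42, 6.97 and 6.90 in the knockout line and 10.21, 10.10 and 10.38 in the adenocarcinoma line. Kif23, the kinesin of the central spindle, read 8.004, 7.93 and 7.94 and 10.85, 10.95 and 11.04. Plk1, the kinase that drives entry into mitosis, read 8.02, 7.63 and 7.75 and 9.90, 9.56 and 9.98. No array of either line crossed into the range of the other for these genes, and the rises were 8.76-fold, 7.93-fold and 4.03-fold. Mki67, the proliferation marker Ki-67, rose by 1.97 ± 0.14, and Cdk1 and cyclin B2 (Ccnb2) by 2.01 and 2.20. The exception was Foxm1, a transcription factor of this group, at 0.89 ± 0.13 for the probe set with the highest mean, although another of its probe sets gave 3.13 and it passed 2-fold without the knockout line's replicate 3, at 1.06.

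Since these genes moved together, their promoters are shown for a pair of elements often described in promoters of mitotic genes. These are the cell cycle genes homology region (CHR, searched as TTTGAA or TTCGAA) and the CCAAT box (CCAAT), on both strands. Promoters were taken from RefSeq (GRCm38.p6), 300 bases each, from 250 before to 50 after the annotated start. Of 26 promoters of 24 mitosis genes that matched by symbol, 20 (76.9%) held both a CHR and a CCAAT box, against 7.52% of all 32851 promoters. Of 16 promoters of licensing genes 25% held both, of 17 of DNA synthesis genes 5.88%, and of 13 of repair genes 0 did. Among promoters of all genes called higher the share was 9.84% and among those of genes called lower 4.23%. The motifs do not overlap each other, and a match is a description of letters in the window. The lines that follow give the promoters of a mitotic kinase, a cyclin and an activator of the anaphase-promoting complex, 5′ to 3′, with CHR and CCAAT matches in capitals.
Plk1, chr7:122159185-122159484, plus strand: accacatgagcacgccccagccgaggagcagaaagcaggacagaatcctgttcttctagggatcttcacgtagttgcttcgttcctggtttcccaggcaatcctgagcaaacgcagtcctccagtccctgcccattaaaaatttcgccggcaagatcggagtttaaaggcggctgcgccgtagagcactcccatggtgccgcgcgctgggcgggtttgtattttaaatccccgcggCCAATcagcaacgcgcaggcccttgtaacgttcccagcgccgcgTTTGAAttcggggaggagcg
Ccnb2, chr9:70421505-70421804, minus strand: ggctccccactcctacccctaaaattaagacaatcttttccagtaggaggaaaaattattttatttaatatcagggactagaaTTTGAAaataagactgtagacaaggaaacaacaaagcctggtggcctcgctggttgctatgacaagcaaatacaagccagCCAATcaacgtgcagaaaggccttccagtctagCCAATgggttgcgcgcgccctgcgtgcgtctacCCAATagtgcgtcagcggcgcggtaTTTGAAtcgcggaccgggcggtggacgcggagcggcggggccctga
Cdc20, chr4:118437294-118437593, minus strand: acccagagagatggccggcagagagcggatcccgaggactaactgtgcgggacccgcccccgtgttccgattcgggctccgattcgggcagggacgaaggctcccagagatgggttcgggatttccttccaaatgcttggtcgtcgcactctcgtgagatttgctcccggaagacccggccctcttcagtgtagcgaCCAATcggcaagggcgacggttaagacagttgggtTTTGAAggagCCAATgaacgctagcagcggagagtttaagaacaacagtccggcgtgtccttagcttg
Counting the start as 1, the CHR began at position 31 and the CCAAT box at -14 in Plk1, the CHR at 5 and -167 and CCAAT boxes at -87, -54 and -21 in Ccnb2, and the CHR at -18 and CCAAT boxes at -53 and -8 in Cdc20. Cdc20 itself read 9.37, 9.12 and 9.07 in the knockout line and 11.39, 11.63 and 11.59 in the adenocarcinoma line, and Ccnb2 read 8.49, 8.40 and 8.15 and 10.41, 10.47 and 10.77. Both rose on every array, by 5.09-fold and 4.61-fold.

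**Figure D3:**
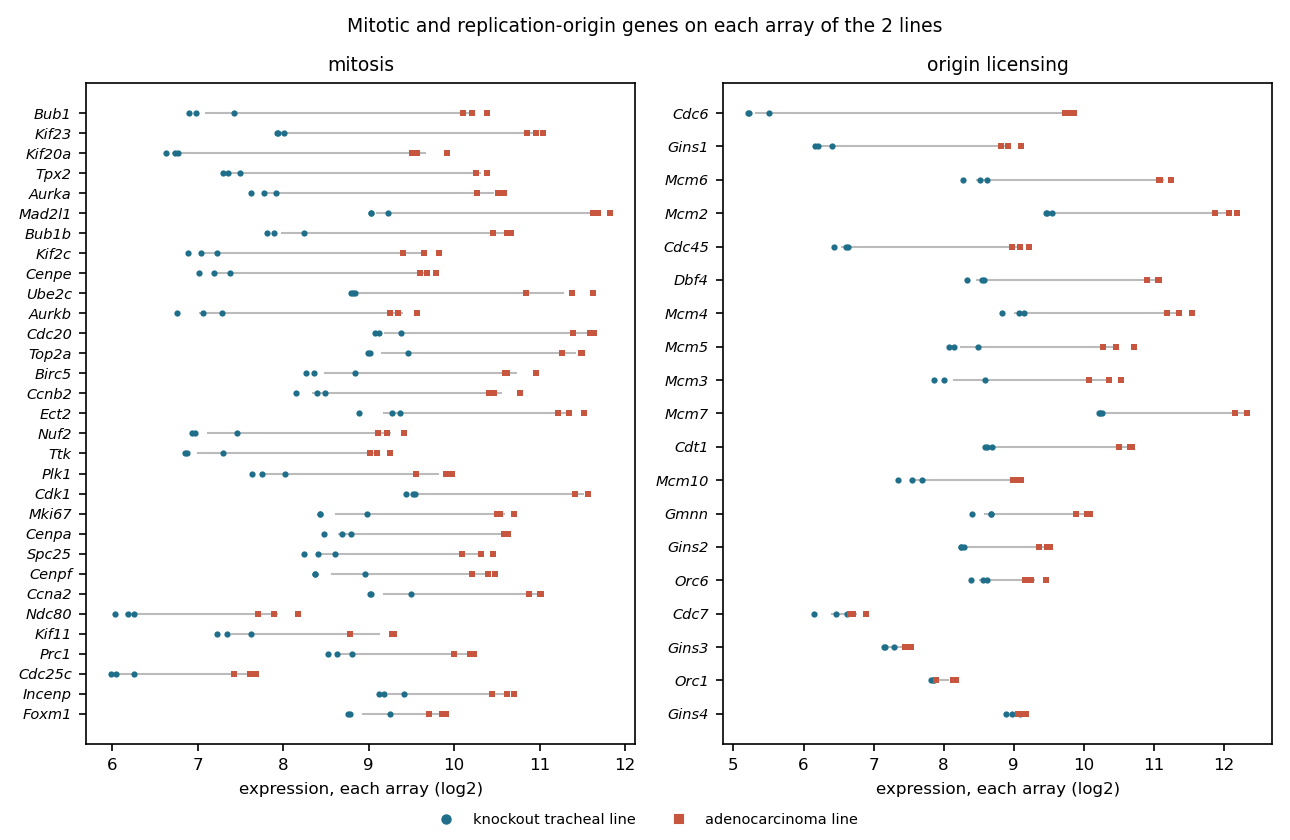
Expression (x axis, log2) of 31 mitosis genes and 19 origin licensing genes on each of the 3 knockout arrays (circles) and 3 adenocarcinoma arrays (squares), ordered by the difference, with a grey line between the group means. In the mitosis panel 30 genes were called higher and Foxm1, at the bottom, was not. In the licensing panel 14 were called higher, and Cdc7, Gins3, Gins4, Orc1 and Orc6 are the lowest.

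Regulators of the G1 phase split. Of 25 such genes 7 rose and 6 fell. Cdkn2b, which encodes the CDK inhibitor p15, read 9.44, 9.82 and 9.52 in the knockout line and 6.12, 5.59 and 5.83 in the adenocarcinoma line, 13.4-fold lower (limma adjusted p 1.24e-09). Cdkn2a, the source of p16 and p19ARF, read 6.86, 7.03 and 6.82 and 5.34, 5.12 and 5.12, at least 3.23-fold lower. The adenocarcinoma arrays of Cdkn2a were at the floor and below all knockout arrays. Mtap, the gene next to this pair, which was picked with its values in view, read 10.11, 10.22 and 10.03 in the knockout line and 11.56, 11.56 and 11.71 in the adenocarcinoma line, a rise of 1.49 ± 0.10. The DNA copy number of the locus was not measured. D-type cyclins changed places: Ccnd2 fell from 12.37, 12.38 and 12.16 to 7.09, 7.65 and 7.35, 30.6-fold, and Ccnd1 rose from 11.72, 11.65 and 11.37 to 13.03, 12.83 and 12.71, 2.42-fold. Ccnd3 differed by -0.35 and was not called. The atypical repressors E2f7 and E2f8 rose by 2.003 and 2.67, cyclin E2 (Ccne2) by 1.85, and Mycl fell by 2.66.

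Of 23 p53 target genes 2 rose and 5 fell. Cdkn1a (p21), the best known of them, read 12.90, 13.07 and 12.82 in the knockout line and 11.98, 12.15 and 11.92 in the adenocarcinoma line, -0.91 ± 0.10, under 2-fold. Mdm2, the p53 ubiquitin ligase and its target, differed by 0.86, also under 2-fold. Pmaip1 (Noxa), a BH3-only cell death gene, stood apart: it read 10.61, 10.55 and 10.54 in the knockout line and 3.72, 3.74 and 3.63 in the adenocarcinoma line, at least 42.8-fold lower. Every adenocarcinoma array of Pmaip1 was under the floor. Gadd45a, a stress gene, rose from 7.60, 7.55 and 7.86 to 9.94, 9.88 and 9.50, and Sesn1 and Fas, the death receptor, fell (-2.34 and -1.43). Among 14 BCL2 family genes the anti-apoptotic Bcl2 rose by 2.08 ± 0.14 and Bid by 1.26, and Bad fell by 1.38 beside Pmaip1. Bcl2l15, a distant member outside that list, was among the largest rises of all genes: it read 5.06, 5.34 and 5.16 in the knockout line and 10.96, 11.08 and 10.59 in the adenocarcinoma line, at least 50.5-fold higher. The inflammatory caspases Casp1 and Casp12, which lie side by side with Casp4 on the chromosome, fell (-3.26 and -1.68). Casp4 fell by 1.001, at the threshold, and differed by -0.95 without the adenocarcinoma line's replicate 3, -0.96 without the knockout line's replicate 2 and -0.98 without its replicate 3, all under 2-fold.

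**Figure D4:**
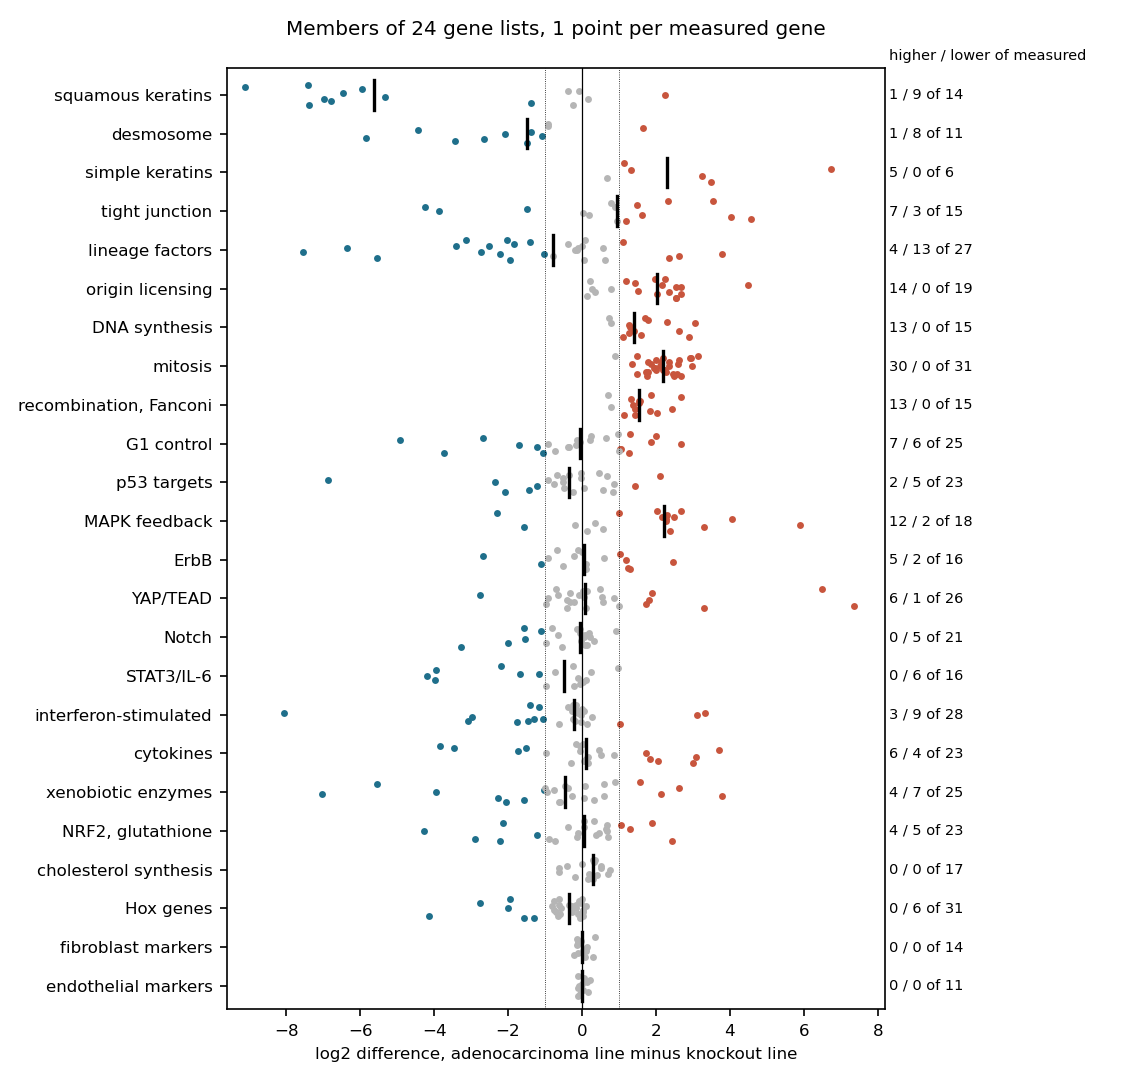
Difference of each measured member of 24 gene lists (x axis, log2, adenocarcinoma line minus knockout line), 1 point per gene, red where called higher, blue where called lower and grey where not called. Black bars are list medians, dotted lines mark 2-fold, vertical offsets of points only separate them, and the counts at the right give members higher and lower of those measured; mitosis stands at 30 and 0 of 31, squamous keratins at 1 and 9 of 14.

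Genes that ERK signalling induces in the RAS-MAPK pathway were raised broadly. The list holds negative feedback genes, which then restrain the pathway, and transcription factor outputs. Of 18 listed, 12 rose and 2 fell, with a median of 2.22. The ERK phosphatase Dusp4 read 5.04, 5.45 and 5.17 in the knockout line and 11.26, 11.19 and 10.90 in the adenocarcinoma line, at least 57.99-fold higher (limma adjusted p 6.12e-11). Dusp6, the cytoplasmic ERK phosphatase, read 6.33, 6.80 and 6.70 and 10.92, 10.76 and 10.34. The Sprouty protein Spry2 read 6.11, 6.51 and 6.63 and 9.40, 9.64 and 10.11. For all 3 genes the arrays of the lines were far apart. Dusp9, another ERK phosphatase that was not on the list, read 4.82, 4.46 and 4.75 in the knockout line and 10.32, 10.28 and 10.45 in the adenocarcinoma line, at least 36.7-fold higher, and its other probe sets rose by 3.09 and 5.12. The ETS factor Etv4 and the AP-1 member Fosl1, both ERK outputs, rose by 2.28 and 2.29, and Spred1 and Phlda1 by 2.50 and 2.38. The members that fell were the phosphatase Dusp7, at -1.58 (-0.77 once _x_at and _s_at probe sets are left out), and the immediate early gene Egr1, from 9.01, 9.28 and 9.27 to 6.90, 6.88 and 6.90, a difference of -2.29. Dusp1 differed by 0.15.

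In the ErbB system the receptors did not pass 2-fold and several ligands and inhibitors did. Egfr differed by 0.12 ± 0.09, Erbb2 by -0.92 ± 0.12 (-1 and called under quantile normalization) and Erbb3 by -0.51. The ligand Hbegf read 7.58, 8.25 and 7.77 in the knockout line and 10.35, 10.23 and 10.37 in the adenocarcinoma line, 5.47-fold higher, and the ligand Ereg rose by 1.19 ± 0.09. The feedback inhibitors Errfi1 and Lrig1 rose by 1.24 and 1.30, while Lrig3 fell by 2.69. Among 16 genes of the insulin-like growth factor system, the binding protein Igfbp7 read 6.60, 5.52 and 6.32 in the knockout line and 12.20, 12.32 and 12.08 in the adenocarcinoma line, 66.3-fold higher. The wild-type line read 10.79 to 11.09, so for Igfbp7 as for Krt19 the knockout line was the low one of the 3. Igfbp4 rose by 2.46 and Igfbp3 fell by 2.13, and Igf1, Igf2 and Igf1r differed by 0.23, -0.08 and -0.81 without being called.

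Targets of YAP and TAZ, the co-activators of TEAD factors in the Hippo pathway, changed singly. Of 26 genes 6 rose and 1 fell, with a median of 0.08, and the list held 2 of the 5 largest fitted rises of all genes. Ccn2, a matricellular protein and the standard YAP target, read 6.01, 5.86 and 5.31 in the knockout line and 13.04, 13.12 and 13.11 in the adenocarcinoma line, 164-fold higher. Ankrd1, another standard target, read 5.18, 4.78 and 4.89 and 11.48, 11.46 and 11.37, at least 77.8-fold higher. Ccn1, the third of the usual reporters, read 10.06, 9.72 and 9.88 and 10.81, 10.77 and 10.64. Ccn2 and Ankrd1 were near the floor on the knockout arrays and bright on the adenocarcinoma arrays, and Ccn1 was bright in both, with a difference of 0.85 ± 0.14. Another bright Ccn1 probe set passed 2-fold, at 1.08, and the 2 dimmer ones differed by -0.72 and -0.73. F3, tissue factor, rose by 3.29 ± 0.17 and the co-factor Vgll3 fell by 2.76. Yap1 itself differed by -0.71 ± 0.10.

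The promoters of Ankrd1 and Ccn1 are set side by side because these genes carry the same TEAD core (GGAATG, searched on both strands) and differed in size of change. Of 22 promoters of listed YAP genes 14 (63.6%) held the core, against 14.7% of all 32851 promoters of this length. Of the 3 with a promoter here among the 6 that rose, 1 held it. Capitals mark the core (CATTCC is GGAATG on the other strand).
Ankrd1, chr19:36119795-36120094, minus strand: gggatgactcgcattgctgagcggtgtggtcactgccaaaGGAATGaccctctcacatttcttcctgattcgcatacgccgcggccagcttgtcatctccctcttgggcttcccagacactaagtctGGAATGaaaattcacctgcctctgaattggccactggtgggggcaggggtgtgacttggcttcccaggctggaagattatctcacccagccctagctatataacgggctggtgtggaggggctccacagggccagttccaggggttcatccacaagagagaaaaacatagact
Ccn1, chr3:145649936-145650235, minus strand: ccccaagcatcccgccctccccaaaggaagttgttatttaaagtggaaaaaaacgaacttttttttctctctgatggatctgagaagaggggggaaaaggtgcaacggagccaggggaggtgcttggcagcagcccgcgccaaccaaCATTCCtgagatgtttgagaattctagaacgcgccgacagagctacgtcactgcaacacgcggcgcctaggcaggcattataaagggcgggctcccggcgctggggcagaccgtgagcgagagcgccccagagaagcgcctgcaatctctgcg
In Ankrd1 the cores began at -210 and -123 and in Ccn1 the single core at -103. The search says nothing of which factor was bound.

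Of 17 genes of thrombin signalling and coagulation 6 rose and 0 fell. The thrombin receptor F2r (PAR1) read 6.11, 5.82 and 5.98 in the knockout line and 12.38, 12.50 and 12.48 in the adenocarcinoma line, 89.4-fold higher. Thbd, thrombomodulin, which turns thrombin into an anticoagulant, read 4.22, 4.67 and 5.20 and 9.73, 9.59 and 9.95, at least 24.05-fold higher. Procr, the receptor for protein C, read 8.44, 8.46 and 8.65 and 11.79, 11.85 and 11.87. For each the lowest adenocarcinoma array lay above the highest knockout array, and Procr alone of the 3 was well above background in the knockout line. The wild-type line read 7.93 to 8.18 for F2r and 6.38 to 6.50 for Thbd, above the knockout line as well. The plasminogen activator Plat and the matrix protein Thbs1 rose by 2.31 and 2.19, and the related receptor F2rl2 differed by -0.13.

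Of 28 TGF-beta and BMP genes 5 rose (3 under quantile normalization) and 6 fell (3 with each gene's probe sets averaged). Tgfbi, a secreted TGF-beta target, read 10.64, 10.43 and 10.47 in the knockout line and 4.72, 4.85 and 4.84 in the adenocarcinoma line, at least 41.2-fold lower. Id4, an inhibitor of helix-loop-helix factors, was at least 10.3-fold lower and the activin antagonist Fst fell by 2.05. The inhibitory Smads, Smad6 and Smad7, rose by 1.48 and 1.91. The ligands Tgfb1, Tgfb2 and Tgfb3 differed by 0.75, -0.35 and 0.32, none called. Of 21 Notch genes 0 rose and 5 fell. The ligand Dll1 read 11.01, 10.93 and 10.86 in the knockout line and 7.60, 7.73 and 7.66 in the adenocarcinoma line, 9.66-fold lower, and the receptors Notch1 and Notch3 and the ligand Jag2 fell (-1.58, -1.99 and -1.54). Notch2 differed by -0.65. Of 33 Wnt genes 2 rose (6.06%) and 4 fell (12.1%), beside 7.79% and 6.38% of all genes. The ligands Wnt4 and Wnt10a and the R-spondin receptor Lgr4 fell (-3.29, -3.62 and -2.43). The larger of the 2 rises was 1.29, and the median over the Wnt list was 0.04.

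Secreted signals changed one by one rather than as families. Of 19 chemokines 3 rose and 0 fell. Cxcl3, a neutrophil attractant, read 3.09, 3.42 and 3.40 in the knockout line and 9.73, 9.24 and 9.65 in the adenocarcinoma line, at least 20.98-fold higher. Its close relative Cxcl1 differed by 0.35 ± 0.17, with arrays of 9.60 to 9.997 in the knockout line and 9.82 to 10.49 in the adenocarcinoma line that overlapped. Ppbp, the platelet chemokine precursor of the same family, read 6.81, 7.21 and 7.07 and 12.25, 12.25 and 12.17, 36.6-fold higher, and 11.27, 11.26 and 11.17 in the wild-type line. Of 23 cytokines and growth factors 6 rose and 4 fell. Csf2 (GM-CSF) read 6.85, 6.70 and 6.76 in the knockout line and 10.03, 9.77 and 9.76 in the adenocarcinoma line, and the alarmin Il33 read 5.15, 5.10 and 5.24 and 8.73, 8.80 and 9.07. Il24, Lif and Il1a rose by 2.99, 1.84 and 1.73. Il18, a caspase-1 substrate, fell from 10.40, 10.51 and 10.64 to 5.98, 6.76 and 7.29, and Tslp, an alarmin of barrier epithelium, was at least 5.65-fold lower. The adenocarcinoma arrays of Il18 spread more widely than those of most genes here but all lay below the knockout arrays.

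**Figure D5:**
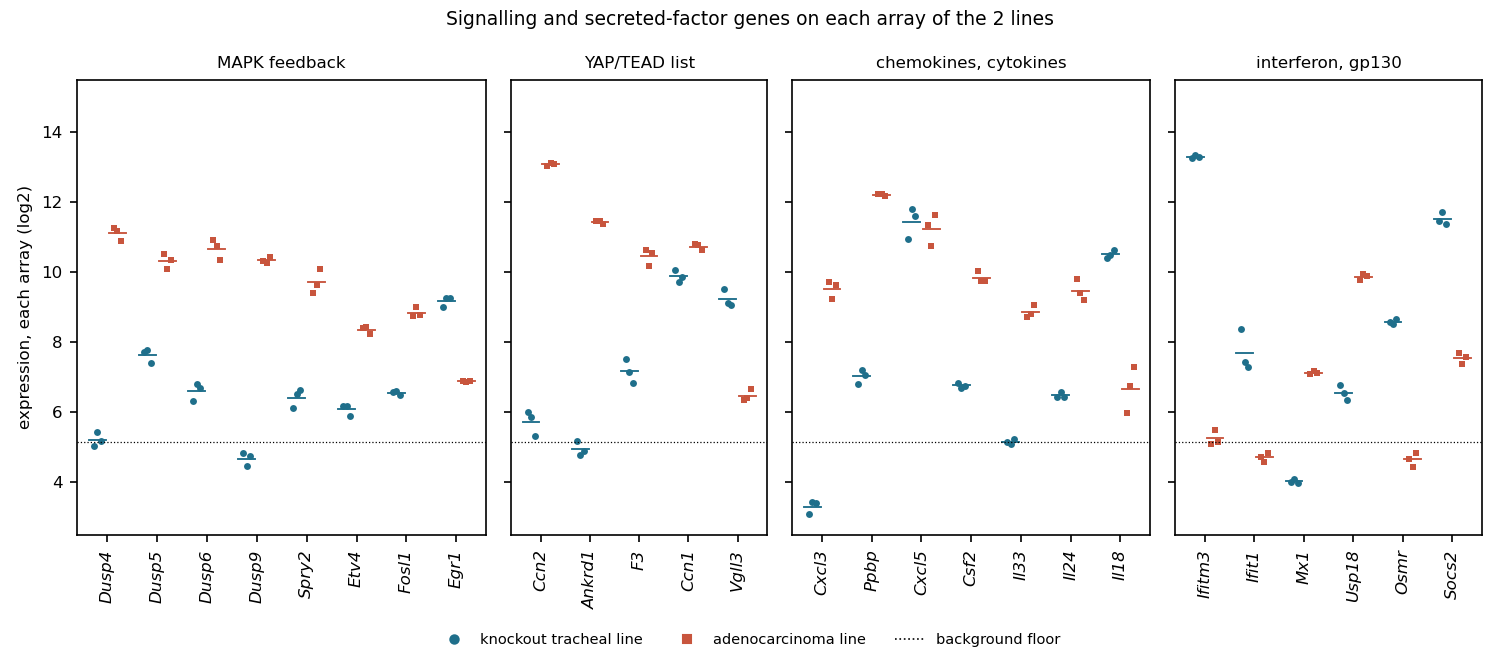
Expression (y axis, log2) of MAPK feedback and output, YAP/TEAD, cytokine and interferon genes on each of the 3 knockout arrays (circles) and 3 adenocarcinoma arrays (squares), with short lines at the group means and a dotted line at the floor of 5.15. Dusp9, Cxcl3 and Mx1 are under the floor on the knockout arrays, and Ifit1 and Osmr on the adenocarcinoma arrays.

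Among 17 NF-kB genes 6 rose and 1 fell. Tnfaip3 (A20), a feedback inhibitor of the pathway, rose from 9.03, 9.01 and 8.99 to 11.54, 11.48 and 11.48, by 2.49 ± 0.08, and Tnfaip2 and the adhesion molecule Vcam1 by 3.19 and 2.10. The subunits Nfkb2 and Rela differed by -0.50 and -0.39. Of 22 prostaglandin and leukotriene genes 4 rose and 2 fell, with a median of -0.03. Those that rose were the leukotriene synthase Ltc4s by 1.06 (0.99 and 0.97 without the adenocarcinoma line's replicate 1 or 2), the phospholipase Pla2g4a by 2.14 ± 0.10, the cyclooxygenase Ptgs2 by 2.04 ± 0.14 and the terminal synthase Ptges by 2.96 ± 0.14, and those that fell were Ptger4, a receptor for prostaglandin E2, and the lipoxygenase Alox12 (-1.45 and -1.58, the latter -0.97 as the mean of its probe sets). Ptgs2 read 9.74, 9.21 and 9.46 in the knockout line and 11.47, 11.29 and 11.75 in the adenocarcinoma line, and Ptges read 7.54, 7.71 and 7.56 and 10.81, 10.64 and 10.25. For both, every adenocarcinoma array lay above every knockout array.

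Signalling through gp130 and STAT3, used by the interleukin-6 family, had 6 of 16 genes lower and 0 higher. The oncostatin M receptor Osmr read 8.59, 8.52 and 8.67 in the knockout line and 4.68, 4.44 and 4.84 in the adenocarcinoma line, at least 10.9-fold lower. The feedback inhibitor Socs2 read 11.48, 11.72 and 11.37 and 7.68, 7.38 and 7.57, and Socs3, the direct STAT3 target, fell by 2.19. Lcn2 (lipocalin 2), an iron-binding acute-phase protein, read 10.06, 11.21 and 10.81 and 6.64, 6.24 and 6.63. It was low in the adenocarcinoma line, 18.3-fold under the knockout line, and the wild-type line read 5.18 to 5.63. Of 28 interferon-stimulated genes 9 fell and 3 rose. Ifitm3, an antiviral membrane protein, read 13.26, 13.35 and 13.28 in the knockout line and 5.10, 5.50 and 5.16 in the adenocarcinoma line, at least 261-fold lower (limma adjusted p 9.22e-13). Usp18, which removes ISG15, rose from 6.77, 6.55 and 6.36 to 9.77, 9.97 and 9.88, and the dynamin-like Mx1 was at least 3.97-fold higher. Ifit1, an RNA-binding antiviral protein, went the other way, at least 5.85-fold lower, and its relative Ifit3 differed by -0.01. In MHC class I presentation, the loading chaperone Tapbp fell by 1.91, and H2-K1 and H2-D1 differed by 0.77 and 0.75, under 2-fold.

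Enzymes that process NNK and other xenobiotics changed in both directions, 4 of 25 up and 7 down. Cbr2, a carbonyl reductase of lung secretory cells, read 12.55, 12.77 and 12.80 in the knockout line and 5.61, 5.82 and 5.56 in the adenocarcinoma line, 132-fold lower. Cyp2f2, a cytochrome P450 of club cells, read 10.82, 11.94 and 11.20 and 6.06, 5.74 and 5.50, 46.9-fold lower. The aldehyde dehydrogenase Aldh3a1 read 11.90, 12.53 and 11.97 and 8.27, 8.17 and 8.12. All 3 were high on each knockout array, and Cbr2 and Cyp2f2 fell close to the floor. The related reductase Cbr3 fell by 2.06. Rises were seen for the glucocorticoid-activating reductase Hsd11b1, 2.13, the aldo-keto reductase Akr1b8, 2.62, and Akr1c12, 3.79, whose close copies leave its identity uncertain. The drug efflux pumps Abcb1a and Abcb1b, which are adjacent, rose too: Abcb1b read 9.22, 9.58 and 9.42 and 10.81, 10.68 and 11.14 (a difference of 0.57, under 2-fold, as the mean of its probe sets), and Abcb1a was at least 5.91-fold higher.

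The glutathione and NRF2 list was split as well, with 4 of 23 up and 5 down. The glutathione transferase Gsta3 read 11.11, 11.34 and 11.50 in the knockout line and 7.02, 7.01 and 7.07 in the adenocarcinoma line, 19.5-fold lower, and Gsta4 fell by 2.88. The thioredoxin reductase Txnrd1 read 9.41, 9.47 and 9.44 and 11.82, 11.82 and 11.95, 5.36-fold higher, and Osgin1 and Gsr rose by 1.88 and 1.31. Nqo1, the usual NRF2 reporter, differed by 0.69 and was under 6 on every array.

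Of 16 iron genes 5 rose, all of them transport or reductase genes, and 3 fell, all of them secreted metal-binding proteins including Lcn2. Tfrc, the transferrin receptor, read 9.87, 9.83 and 9.82 in the knockout line and 12.40, 12.47 and 12.55 in the adenocarcinoma line, 6.22-fold higher. The exporter Slc40a1 (ferroportin) read 7.0001, 6.79 and 6.96 and 8.97, 9.17 and 9.45, and the ferrireductases Steap1 and Steap2, neighbours on the chromosome, rose by 2.06 and 2.73. The metal importer Slc39a8 was at least 7.92-fold higher. Ceruloplasmin (Cp) fell by 3.09 and lactoferrin (Ltf) fell by 2.14. The ferritin heavy chain Fth1 differed by -0.54.

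Of 25 glycolysis and hypoxia genes 2 rose and 5 fell (3 with each gene's probe sets averaged), with a median of 0.09. Hexokinase 2 (Hk2), the inducible first enzyme, read 7.88, 8.17 and 7.51 in the knockout line and 11.13, 11.40 and 11.25 in the adenocarcinoma line, 10.6-fold higher, while Hk1 differed by -0.04 and the glucose transporter Slc2a1 by 0.14. Epas1 (HIF-2 alpha) read 12.35, 12.18 and 12.01 and 7.14, 7.34 and 7.53, 28.7-fold lower, and Egln3 and Ndrg1, hypoxia-responsive genes, fell (-1.71 and -1.67). The desaturase Scd1 rose from 6.79, 5.80 and 6.53 to 10.35, 10.84 and 10.56, but the wild-type line at 11.41 to 11.43 was higher than both. Cpt1a, which admits fatty acids to mitochondria, fell by 2.37. Of 17 cholesterol synthesis genes 0 were called by limma in either direction, 11 had an unadjusted p under 0.05, and their median was 0.30 (0.09 with each gene's probe sets averaged). In the ATF4 group the mitochondrial folate enzyme Mthfd2 rose by 2.18 ± 0.13 and Trib3 by 1.76, and the lipoprotein receptor Vldlr fell by 4.08.

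Of 23 matrix protease genes and inhibitors 3 rose and 5 fell, with a median of -0.04. The collagenase Mmp13 read 3.87, 3.84 and 3.96 in the knockout line and 8.57, 7.94 and 8.72 in the adenocarcinoma line, at least 9.58-fold higher, and Mmp2, Mmp3 and Mmp7 differed by -0.77, 0.10 and -0.04. Plaur, the urokinase receptor, rose by 2.99 ± 0.24. The metalloproteinase inhibitor Timp3 fell from 9.40, 10.06 and 9.49 to 6.52, 6.68 and 6.53, and Adam8, Adamts1 and Adamts15 fell (-3.67, -3.61 and -4.16). Among cathepsin-related genes, Ctla2a and Ctla2b, which encode propeptide-like inhibitors of cathepsins, were among the largest rises of the comparison. Ctla2a read 5.21, 5.19 and 5.01 in the knockout line and 12.96, 13.02 and 12.93 in the adenocarcinoma line, at least 221-fold higher, and Ctla2b was at least 81.8-fold higher. They are near-identical copies, so their probe sets may read each other's transcripts. Ctsb and Ctsc differed by -0.36 and 0.43.

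Of 23 actin and contractile genes 4 rose and 3 fell, with a median of -0.02. The bundling protein Fscn1 (fascin) read 11.72, 11.60 and 11.96 in the knockout line and 5.21, 5.51 and 5.46 in the adenocarcinoma line, 82.7-fold lower. Lcp1 (L-plastin), a leukocyte bundler that carcinomas often express, read 4.82, 4.97 and 4.71 and 10.97, 10.87 and 11.15, at least 57.7-fold higher. Pls1, its epithelial relative, rose by 2.46 ± 0.22. Fascin was bright on the knockout arrays and close to the floor on the adenocarcinoma arrays, and L-plastin was bright on the adenocarcinoma arrays and under the floor on the knockout arrays. Tropomyosin 2 (Tpm2) and palladin (Palld) fell (-3.84 and -3.03). The collagen-binding integrin Itga2 rose from 5.58, 5.95 and 5.89 to 10.12, 9.28 and 9.88, and Itga3 by 1.51.

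Positional and imprinted genes held a few large changes. Of 31 Hox genes 6 fell and 0 rose. Hoxa9 read 8.96, 9.14 and 9.06 in the knockout line and 4.97, 4.86 and 4.94 in the adenocarcinoma line, at least 14.96-fold lower, and Hoxc4 fell by 2.75. Of 20 imprinted genes 1 rose and 1 fell (5% each), a share under that of all genes. The zinc finger factor Plagl1 fell by 3.80 and Phlda2, a growth restrainer of placenta, rose by 3.22. In retinoid handling, Crabp2, which carries retinoic acid to its receptor, read 11.73, 11.99 and 11.93 and 6.21, 6.21 and 6.15, 51.7-fold lower. The retinol dehydrogenase Rdh10 rose by 2.28 ± 0.17, and Aldh1a1, which makes retinoic acid, fell by 2.28. Among 33 guidance genes, the pair of the ligand Sema3e and its receptor Plxnd1 both rose, by 3.05 and 2.86, and Robo1 and Efna3 fell, at least 5.33-fold and 17.5-fold. Muc1 read 6.29, 6.45 and 6.36 in the knockout line and 11.84, 11.96 and 11.70 in the adenocarcinoma line, 44.2-fold higher, and Muc15 was at least 36.7-fold lower.

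Several of the largest changes fell outside the lists. Parvb (beta-parvin), an adaptor at integrin adhesions, read 4.41, 4.38 and 4.27 in the knockout line and 10.26, 10.06 and 9.83 in the adenocarcinoma line, at least 29.9-fold higher. Gcnt3, a transferase that branches mucin glycans, was at least 28.96-fold higher, and the peptide receptor partner Ramp1 29.5-fold higher. The pituitary hormone prolactin (Prl) was raised as well, from 5.65, 5.48 and 5.43 to 10.58, 10.77 and 10.56, and the arginine deiminase Padi4 rose by 5.09 ± 0.11. The scramblase Plscr2 rose by 4.96, the tubulin Tubb2b was at least 26.9-fold higher, and Lipo3 and Car8 were at least 17.2-fold and 10.03-fold higher. Among the falls, Hspb1 (HSP27), a small heat shock protein, read 14.32, 14.19 and 14.21 in the knockout line and 7.95, 8.22 and 8.14 in the adenocarcinoma line, 70.3-fold lower. Nfix, a nuclear factor I transcription factor, read 12.37, 12.50 and 12.31 and 5.68, 6.16 and 6.06, 85.9-fold lower. Defb1, the antimicrobial peptide beta-defensin 1, read 11.45, 11.37 and 11.76 and 5.20, 5.01 and 5.41. All 3 were bright on every knockout array, and Defb1 was at the floor in the adenocarcinoma line. Pdzrn3, Vsnl1, Rcn1, Hs3st3b1 and the phosphatase Acpp were at least 51.8-fold, 48.7-fold, 47.2-fold, 29.2-fold and 70.7-fold lower.

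Called genes sometimes lay next to each other. Among 18134 genes placed in the order of the RefSeq gene table (GRCm38.p6), 31 runs of at least 3 neighbours rose together and 22 fell together, 165 genes in all. The longest run held 5 genes that fell, Lurap1l, Mpdz, Nfib, 2310067E19Rik and Gm11266. The last of these lost its call without the knockout line's replicate 3 or the adenocarcinoma line's replicate 1 or 2, at -0.58, -1.12 and -1.03, and the run then held 4 genes. Mpdz, a multi-PDZ scaffold, read 9.84, 9.52 and 9.44 in the knockout line and 4.35, 4.49 and 4.51 in the adenocarcinoma line, at least 21.9-fold lower, and Nfib, a nuclear factor I family member like Nfix, fell by 1.24. Others were families known to lie in clusters: Krt14, Krt16 and Krt17, Krt6b, Krt6a and Krt5, Sbsn, Dmkn and Krtdap, Sprr2d, Sprr2f and Sprr2h, and the carboxylesterases Ces2e, Ces2f and Ces2g fell (Ces2e by 0.97, under 2-fold, without the knockout line's replicate 3), and probe sets of near-identical copies among them may read one another. A further run joined genes of no common family, Cystm1, Pfdn1 and the ErbB ligand Hbegf, which rose by 2.59, 1.10 and 2.45.

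Of 1531 called genes with more than 1 probe set, 857 had another called in the same direction and 4 had one called in the opposite direction, Hnrnpd, Mtm1, Pclaf and Vcp. Hnrnpd rose by 1.002 at its brightest probe set, at the threshold, and by 0.96 without the knockout line's replicate 2, 0.98 without the adenocarcinoma line's replicate 1 and 0.99 without its replicate 3. For Mtm1, myotubularin, 2 bright probe sets rose by 2.70 and 3.10, with adenocarcinoma means of 11.9 for both, and a dimmer one fell by 1.85. For Pclaf, a PCNA-binding protein, the bright probe set rose by 1.35 and a dim one fell on the same arrays, at least 1.98-fold.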

How the data were processed

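Affymetrix MG-430 2.0 arrays, per the labels, were read from total RNA of 3 lines, 3 arrays each. The deposited values are log2 signals per probe set. How the authors corrected background, summarized probes and normalized arrays is not stated in these sources, and the number of arrays limits the precision. Of 45101 probe sets, 64 controls were left out and 45037 fitted with limma 3.58.1 in R 4.3.3 (lmFit, then eBayes without a trend), group as the only term, over all 9 arrays with 6 residual degrees of freedom. The p-values were adjusted by Benjamini-Hochberg over these probe sets. Old platform annotation named 34945 probe sets with 1 symbol, 932 with several and 9160 with none, and 34741 matched the RefSeq gene table (GRCm38.p6) by Entrez ID. Each gene was read at the brightest, by mean over all arrays, of the probe sets that carry its symbol alone, and 9010 of 18193 genes had several. The floor is the 95th percentile of 27 Bacillus control probe sets over all arrays, and a bound divides the brighter line's mean by the dimmer line's mean with each array raised to the floor. The fit was tested on simulated data.

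The comparison and the gene lists were chosen with earlier results of these data known. The text names the 25 largest rises and falls (without probe sets ending in _x_at and predicted names), up to 8 called members and the first 3 members of each list, genes in runs of neighbours, genes with opposing probe sets and the Gprc5 family. Of the genes this rule names, 1 is not reported here. Chosen after their values were seen were Krt23, Cldn4, Itgb4, Gata6, Vim, Mcm3, Mcm7, Cdc7, Incenp, Plk1, Mki67, Foxm1, Cdc20, Gins3, Gins4, Orc1, Orc6, Mtap, Etv4, Dusp7 and Ccn1. Alternatives were median centring, quantile normalization, dropping the dimmest 40% of probe sets, averaging probe sets per gene, dropping those that end in _x_at or _s_at, adjusting over 1 probe set per gene, fitting 6 arrays, an intensity trend, a replicate block, other fold thresholds and leaving out each array.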

Additional observations from a re-analysis of the deposited data

How the results depend on the processing

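The counts of called genes followed the fold threshold: 4138 genes rose and 3541 fell with none (15963 probe sets), 2656 and 2217 at 1.5-fold (9950 probe sets) and 414 and 407 at 4-fold (1496 probe sets). Leaving out 1 array at a time gave 1383 to 1460 genes higher, 1155 to 1191 lower and 5049 to 5324 probe sets. With each gene's probe sets averaged, 1182 rose and 930 fell, and after quantile normalization 1325 and 1251. The titles number the arrays 1 to 3 in each line. Deviations of same-numbered arrays correlated at 0.049, -0.039 and 0.082, so the numbers were not treated as pairs, and with the replicate number as a block 1417 genes rose, 1161 fell and 5117 probe sets were called. As the mean of their probe sets Hnrnpd, Pclaf and Vcp turned to -0.267, -0.0685 and -0.0938. With _x_at and _s_at probe sets left out Acta2 turned to 0.0278. Of 260 named genes that were called, 246 kept the call under every alternative, other than the fold threshold, that tested them, but 9 were not tested after the filter on dim probe sets and 3 after that on _x_at and _s_at probe sets. Signal near the floor is the other limit: 2482 genes were under it on all 6 arrays.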
